A study of Homo sapiens with 2 samples.

Results

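The cytosolic ribosomal protein genes are the nuclear genes for the proteins of the ribosome that translates messenger RNA (mRNA) in the cytoplasm. They were chosen by name: protein-coding genes of the deposited table whose whole symbol is RPL or RPS, a number and at most 1 further letter (after RPS only A or X), with the stalk genes RPLP0, RPLP1 and RPLP2 and with RPSA, but without RPS27L and without genes described as like another gene or as a kinase. The rule took 77 of the 46427 genes listed, 46 for the large subunit and 31 for the small subunit, and left out RPL3L, RPL10L and RPL39L by their descriptions. NK92, a human natural killer (NK) leukemia cell line, was grown in a medium with 2% human serum. After 18 h of pre-incubation the culture was divided between 2 dishes, of which 1 received 10 µg/mL of PPMX-T003, an antibody against transferrin receptor 1, the receptor that brings iron into the cell. Polyadenylated RNA of each dish was sequenced from a stranded library, giving 1 library per condition, with 46766416 counted reads without PPMX-T003 (unexposed) and 43178462 with it (exposed). The comparison asks which transcripts differ after 6 h with the antibody. The columns of the table are headed 0 h and 6 h, whereas the methods say that both dishes were kept for the same further time, so a difference in time of harvest cannot be told apart from the exposure.

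A ribosome joins a small subunit, which reads the mRNA, to a large subunit, which forms the peptide bond, and each holds a ribosomal RNA scaffold with many small basic proteins around it. Most of these proteins are present as 1 copy per ribosome, so that cells make them in matched amounts. Their mRNAs are short, abundant and stable, and most begin with a C and an unbroken run of C and T, the 5′ terminal oligopyrimidine (TOP) tract, through which the kinase complex mTORC1 and the RNA-binding protein LARP1 control how much they are translated.

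The identity of the cells was read from marker genes. All 11 NK cell markers were present, and their summed counts were 162255 without and 166346 with PPMX-T003. NKG7, a protein of cytotoxic granules, was the most abundant of them with 50704 and 52091 counts, and NCAM1, which encodes CD56, had 10820 and 9420. The T cell genes CD3D, CD3G and CD8B, the B cell gene MS4A1 and the erythroid genes HBB and HBA1 had 0 counts in both libraries, which allows up to 3 counts in each. CD4 had 4 and 0. CD3E, of the same complex as CD3D and CD3G, was present with 19080 and 18942 counts, and so was the costimulatory receptor CD28 with 2252 and 1803. TRAC, the constant part of the T cell receptor alpha chain, had 1501 and 1312 counts, CD79A had 14 and 12, and of the monocyte genes CSF1R had 22 and 9, CD14 0 and 7 and LYZ 2 and 0. FCGR3A, which encodes the CD16 of mature NK cells, had 16 and 15. In bulk RNA such as this, fewer cells of a type and less RNA per cell cannot be told apart.

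Ribosomal protein transcripts took 5.87% of the counts without PPMX-T003 (95% Clopper-Pearson interval 5.87% to 5.88%) and 6.30% with it (6.30% to 6.31%). Intervals here and in what follows measure counting error alone. They set library against library rather than condition against condition, and no difference has a replicate check. The large subunit made up 3.55% and 3.79% of the libraries and the small subunit 2.33% and 2.51%, so that the ratio of large to small subunit counts was 1.52 without and 1.51 with PPMX-T003. Of the 100 genes with the most counts in the unexposed library, 24 were cytosolic ribosomal protein genes. Their counts there ran from 4198 for RPS29 to 118293 for RPS2, with a median of 31674, and all 77 passed the minimum of 20 counts summed over both libraries.

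Levels of different genes are compared per transcript length, as RPKM, counts divided by the library total and by the median length of each gene's GENCODE transcripts. On this scale the median of the 77 genes was 1042 without and 1090 with PPMX-T003. RPS2, which lines the channel where mRNA enters the small subunit, had 3077 and 3608. RPS18, a protein of the head of the small subunit, had 3346 and 3607. RPLP1, an acidic stalk protein, had 2273 and 2702. These 3 genes stood highest in both libraries. RPS28 was lowest with 114 and 148, a value that depends on the long GENCODE length taken for it (1326 bases). It depends also on how reads were divided with pseudogenes, described below. With their reads RPS28 had 13636 and 14690 counts rather than 7066 and 8482, which would no longer place it lowest. RPS29 was next, with 154 and 191. The middle of the distribution was narrow, the upper quartile being 1.77 times the lower in the unexposed and 1.67 times in the exposed library. Between the libraries the order of the 77 genes was almost the same (Spearman's rho 0.99 for log2 counts over the library total, a correlation across genes, which are not independent replicates).

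The deposited TPM, which divides by transcript length before scaling to the library and was rounded to whole numbers, orders the genes differently. RPS18 (8226 without and 8538 with PPMX-T003) and RPS2 (6007 and 6784) again stood at the top. RPS27, with 3726 and 3876, and RPL41, the shortest ribosomal protein, with 3568 and 3797, were also among the 5 highest. RPL14 was the lowest, with a TPM of 217 and 216. Set against the counts, the deposited FPKM imply a length over 2 times the GENCODE median for 19 of the 77 genes and over 5 times for 5. For RPL14 the implied length was 7491 bases against 916, for RPL37 4659 against 637, for RPL27A 4789 against 681.5 and for RPL28 4029 against 670. RPL37 (TPM 347 and 379), RPL28 (387 and 417) and RPL27A (460 and 459) were also among the 5 lowest by TPM in the unexposed library, as was RPS28 (255 and 320). Per GENCODE length RPL37, RPL28 and RPL27A lay between 979 and 1362 in that library, in the middle of the family or above. Over the 77 genes, TPM and RPKM had a Spearman's rho of 0.57.

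The start sites carry the feature for which this family is known. RefSeq promoters (GRCh38.p14, 250 bases before to 50 bases after each start) were found for 62 of the 77 genes, with 77 starts, and not for 15, RPL5, RPL7, RPL8, RPL23, RPL23A, RPL30, RPL37, RPS2, RPS15A and RPS20 among them. The windows below are shown for the genes that changed most or least and for members of the stalk, of the 5S particle and of the S6 kinase pathway. RPL11 and RPL6 each have a second listed start, which has no tract and is not shown. Each window has 15 bases before and 15 from an annotated start, 5′ to 3′ on the strand of the gene, and capitals mark the unbroken run of C and T that begins at the start base, where there is one.
RPS28, chr19:8321481-8321510, plus strand: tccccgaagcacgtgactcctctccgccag
RPS29, chr14:49598696-49598725, minus strand: ccccgagcgcgcagcTggcagcggtggttg
RPLP1, chr15:69452803-69452832, plus strand: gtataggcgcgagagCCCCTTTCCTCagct
RPL38, chr17:74203663-74203692, plus strand: aacggaagtctcgttCTTTTTCgtcctttt
RPLP0, chr12:120201097-120201126, minus strand: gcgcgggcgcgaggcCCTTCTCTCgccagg
RPLP2, chr11:809952-809981, plus strand: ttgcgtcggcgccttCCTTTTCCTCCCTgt
RPL11, chr1:23691791-23691820, plus strand: cggaagctccgctttCTCTTCCTgctctcc
RPS6, chr9:19380222-19380251, minus strand: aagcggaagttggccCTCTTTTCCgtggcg
RPS3A, chr4:151099613-151099642, plus strand: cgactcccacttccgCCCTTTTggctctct
RPL9, chr4:39458908-39458937, minus strand: gtacgtaatgacgacagacgttctttcttt
RPL6, chr12:112411428-112411457, minus strand: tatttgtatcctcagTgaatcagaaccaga

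A C at the start followed by at least 4 bases of C or T was found at 46 of the 77 starts (59.7%), against 4.07% of 35116 RefSeq starts and 5.15% of the 13173 starts of protein-coding genes. By gene, 46 of the 62 had such a tract at a listed start and 16 had none, RPS28, RPS29, RPL6 and RPL9 among the latter. Of those 16, 7 had a tract within 5 bases of a start, a looser criterion that 21.1% of all RefSeq starts and 22.0% of protein-coding starts meet. Other letters were searched on both strands of the 300 bases. CTTTCC, which can lie within such a tract, was held by 48.1% of the family's promoters, 26.3% of all promoters and 26.9% of those of protein-coding genes. CCGGAAG, letters bound by ETS family factors, was held by 33.8%, 10.3% and 18.2%. AAGATGGC, letters bound by YY1, was held by 7.79%, 2.89% and 5.28%. GGGCGG was held by 54.5%, 45.0% and 65.1%, so that the family lies above all promoters but below protein-coding ones. TATAAA was held by 6.49%, 11.5% and 6.40%, and CACGTG by 5.19%, 7.26% and 9.68%. The ends of these letters can overlap by up to 3 bases between one motif and another. A match describes the letters in the window and is not evidence of a bound factor.

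With PPMX-T003 the family as a whole lay slightly higher than in the unexposed library, in both subunits. The median log2 fold change of the 77 genes was 0.10 (mean 0.11, SD 0.07), against -0.0020 over all 13665 genes tested, with the libraries scaled by TMM, a trimmed mean of the log ratios of all genes. The median was lower after fits on length and GC content (0.06 and 0.05) and on the deposited TPM scale (0.05), both described below. The summed counts gave the same value as the unfitted median, 0.10 (interval 0.10 to 0.11). A log2 fold change above 0 was found for 75 of the 77 genes, where 49.7% of all genes tested and 46.2% of the other well-counted genes (a sum of 10000 or more over both libraries) lay above 0. RPL6 and RPS3A were the exceptions. By library size alone or median-of-ratios scaling 74 lay above 0, RPL9 being the further exception, and by upper-quartile scaling 76, RPS3A being now above 0.

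**Figure D1:**
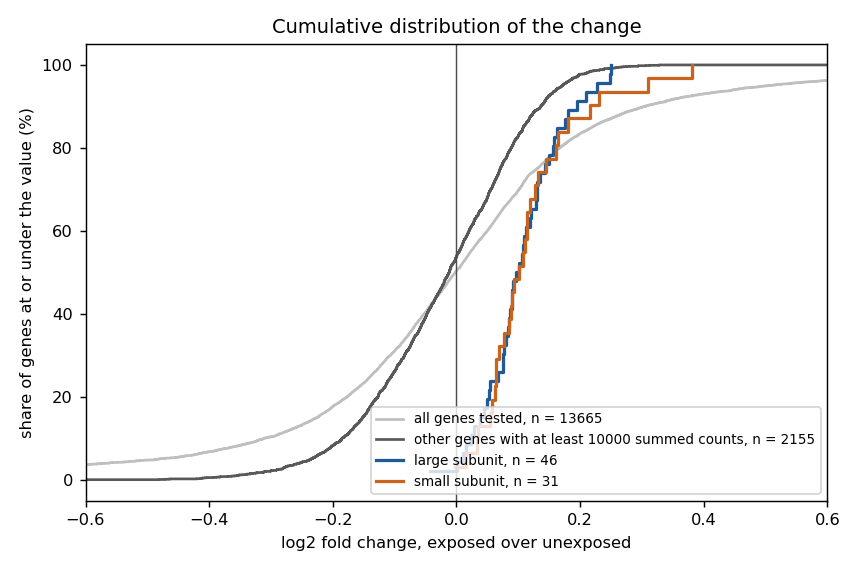
Cumulative share of genes (vertical axis, %) at or under each log2 fold change of exposed over unexposed (horizontal axis). The curves of the large (46 genes) and small subunit (31 genes) lie close together and to the right of those of all 13665 genes tested and of the 2155 other genes with at least 10000 counts, whose medians are -0.0020 and -0.012.

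The shift was small for every gene. Beyond counting error, 69 of the 77 were higher with PPMX-T003 and 1, RPL6, was lower, while the 95% counting interval of 7 held 0. After fits on length and GC content (described below) these were 59 higher and 4 lower, or 43 and 14 with the longest transcripts. Of all genes tested, 21.8% had an interval above 0 and 23.9% below 0. Intervals narrow with depth, and of the 2155 other well-counted genes, which are closer in depth, 34.3% lay above 0 and 41.6% below. By size, 20 of the 77 (26.0%) rose 1.1-fold or more, and 0 were lower by that size. After the same fits, 9 and 12 rose 1.1-fold or more. Shares of all genes by size or by interval were not computed after the fits, so the shares given here are unfitted. The 26.0% is near the 24.0% of all genes tested, whose median sum is only 2124 counts, and above the 9.79% of the other well-counted genes. Lower by 1.1-fold or more were 25.2% of all genes tested and 18.1% of the other well-counted genes. No ribosomal protein gene differed 2-fold, as did 2.64% of all genes tested and 0.0464% of the well-counted others.

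**Figure D2:**
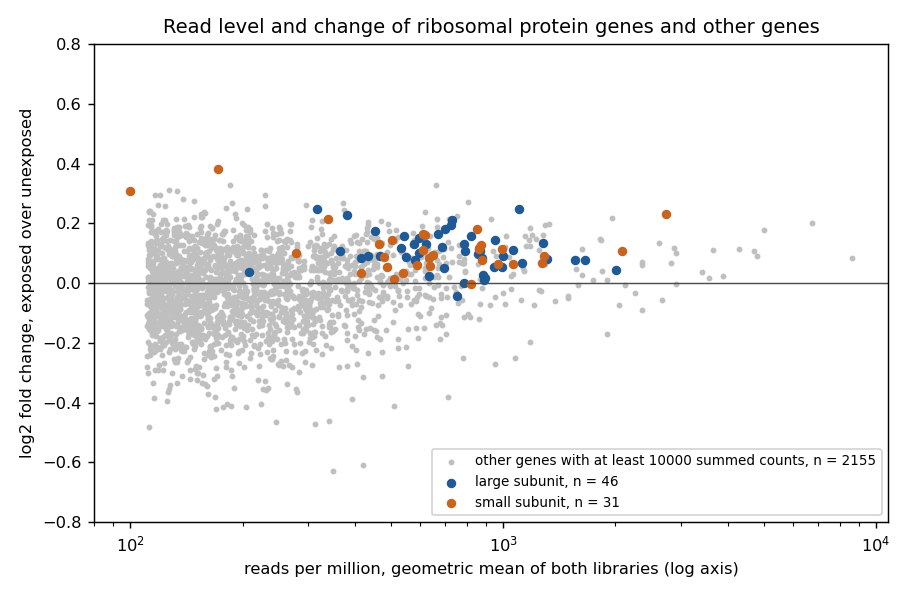
Log2 fold change of exposed over unexposed (vertical axis) against CPM, the counts scaled to the library total, as the geometric mean of both libraries on a log axis. Blue and orange points are the 46 large and 31 small subunit genes, which lie between -0.04 and 0.38, and grey points are the 2155 other genes with at least 10000 summed counts, 1 of which lies outside the axis.

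The large and small subunits lay close together. The large subunit genes had a median log2 fold change of 0.099 (SD 0.06) and the small subunit genes of 0.10 (SD 0.08), a difference of -0.0019. In the large subunit 45 of 46 genes lay above 0, 40 had an interval above 0 and 12 rose 1.1-fold or more. In the small subunit these numbers were 30, 29 and 8 of 31. The change of the summed counts was 0.098 (interval 0.095 to 0.10) for the large and 0.11 (0.11 to 0.12) for the small subunit. RPS2 alone holds 118293 of the 1088637 small subunit counts of the unexposed library. Both medians were lower after the fits on length and GC content described below, 0.057 for the large and 0.060 for the small subunit. With the longest transcripts they were 0.045 and 0.054, and on the deposited TPM scale 0.040 and 0.054.

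**Figure D3:**
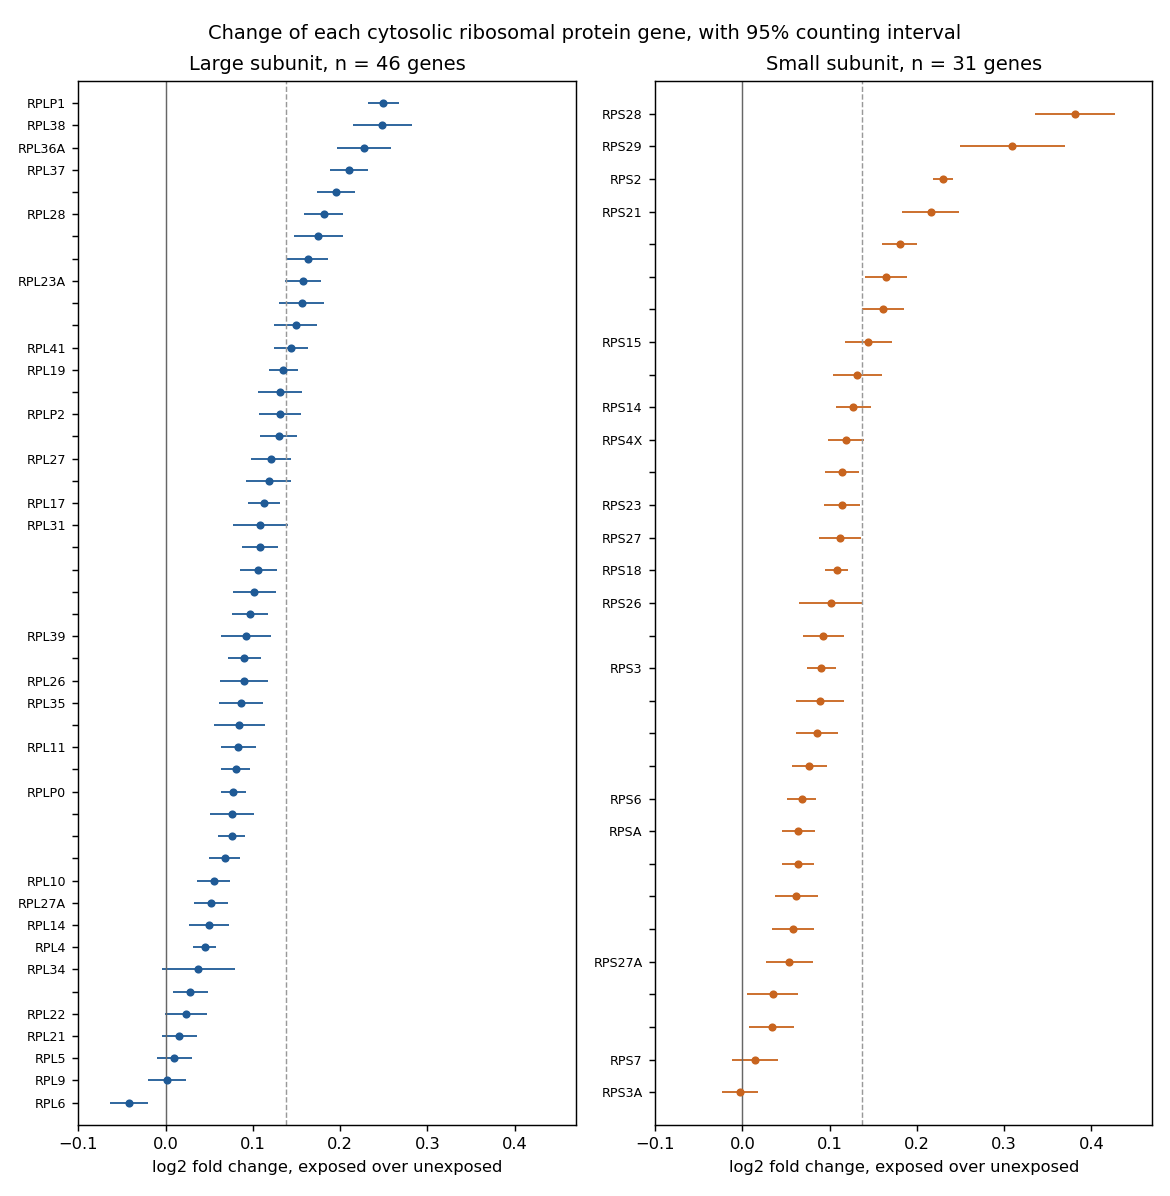
Log2 fold change of exposed over unexposed for each gene of the large (left) and small subunit (right), ordered by size, with 95% Clopper-Pearson counting intervals as bars. The solid line marks 0 and the dashed line 1.1-fold, and genes described in the text are labelled. RPS28 and RPS29 lie to the right of all others, and RPL6 is the only gene whose bar lies left of 0.

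The genes that rose most, by the bound of the interval nearest 0, belong to both subunits. RPS28 (gene ID 6234), which lies at the mRNA exit of the small subunit, had 7066 counts without and 8482 with PPMX-T003, a log2 fold change of 0.38 (interval 0.34 to 0.43). With the reads of its pseudogenes added this was 0.22 (interval 0.19 to 0.26), no longer the highest. RPS29 (gene ID 6235), a zinc-binding protein of the head of the small subunit and the family's lowest in counts, had 4198 and 4796 (0.31, interval 0.25 to 0.37). Neither has a TOP tract at its annotated start base, but in the RPS28 window above a run of C and T begins 1 base later. RPLP1 went from 47335 to 51877 counts (0.25, interval 0.23 to 0.27). RPS2 went from 118293 to 127897 (0.23, interval 0.22 to 0.24). RPL38, a small protein at the surface of the large subunit, went from 13635 to 14932 (0.25, interval 0.21 to 0.28). These 5 are the only genes of the family, apart from RPL36A, RPS21 and RPL37, whose log2 fold change was above 0.20. They had more reads in the exposed library although that library is the smaller of the 2.

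At the other end, RPL6 (gene ID 6128), a large subunit protein, fell by more than the library total. It had 35718 counts without and 31984 with PPMX-T003, a log2 fold change of -0.04 (interval -0.06 to -0.02). RPS3A, a small subunit protein near the mRNA exit, had 38428 and 35365 (-0.0026, interval -0.02 to 0.02). RPL9, of the large subunit, had 36690 and 33863 (0.0016, interval -0.02 to 0.02). For RPL9 and RPS3A no difference was detectable at this depth. The same holds for RPL5, RPS7, RPL21, RPL22 and RPL34, whose log2 fold changes lay between 0.0098 and 0.04.

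The stalk is the flexible arm of the large subunit that recruits the elongation factors. RPLP0, its base, had 75550 counts without and 73497 with PPMX-T003 (log2 fold change 0.08, interval 0.06 to 0.09). RPLP2, which pairs with RPLP1, had 27745 and 28005 (0.13, interval 0.11 to 0.15). With RPLP1 at 0.25, the 3 stalk genes differed among themselves beyond their counting error. The 5S particle brings the 5S ribosomal RNA into the large subunit and, when free, binds the p53 regulator MDM2. Of its proteins, RPL11 had 39964 and 39033 counts (0.08, interval 0.06 to 0.10) and RPL5 had 41533 and 38551 (0.0098, interval -0.01 to 0.03), intervals that do not overlap.

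Around the exit of the peptide tunnel, where the new chain leaves the large subunit, 8 of 8 genes had an interval above 0, with a median log2 fold change of 0.10, as in the family as a whole (69 of 77, median 0.10), against 21.8% of all genes tested. RPL23A, the docking site of the signal recognition particle and other factors, was highest with 36215 and 37241 counts (0.16, interval 0.14 to 0.18). RPL4, whose loop reaches into the tunnel, was lowest with 92400 and 87868 (0.04, interval 0.03 to 0.06). RPL17, RPL19, RPL26, RPL31, RPL35 and RPL39, which ring the exit, lay between 0.09 and 0.13. RPL23A was the only gene of the 8 to rise 1.1-fold or more.

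On the small subunit, the 4 genes at the mRNA entry and decoding site had a median of 0.13, each with an interval above 0, as had 69 of the 77 and 21.8% of all genes tested. After RPS2, the highest was RPS15, whose tail reaches the decoding site, with 22350 and 22775 counts (0.14, interval 0.12 to 0.17). RPS23, a protein of the decoding site, had 38794 and 38708 (0.11, interval 0.09 to 0.13). RPS3, which with RPS2 holds the mRNA as it enters, was lowest with 58515 and 57430 (0.09, interval 0.07 to 0.11). At the mRNA exit and platform the median of the 5 listed genes was also 0.13. That list does not hold RPS3A, described above as near the mRNA exit, whose log2 fold change was -0.0026. RPS28 was the highest of them. RPS14, a platform protein, had 39004 and 39272 counts (0.13, interval 0.11 to 0.15). RPS26, which contacts the mRNA upstream of the codons being read, had 12542 and 12402 (0.10, interval 0.07 to 0.14). RPSA, also known as the laminin receptor, was lowest with 44424 and 42820 (0.06, interval 0.05 to 0.08). RPS6, the classic substrate of S6 kinase downstream of mTORC1, had 58141 and 56193 counts (0.07, interval 0.05 to 0.08).

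The 4 X-linked genes had a median of 0.11. RPL36A, which lies near the site where transfer RNA leaves, had 16511 and 17820 counts (0.23, interval 0.20 to 0.26). RPS4X had 38770 and 38814 (0.12, interval 0.10 to 0.14). RPL10, which joins the large subunit late in its assembly, had 45612 and 43685 (0.05, interval 0.04 to 0.07). RPL39, named above at the tunnel exit, lay between RPS4X and RPL10 at 0.09. The family as a whole is spread over 21 chromosomes. The 20 listed genes whose mutation causes Diamond-Blackfan anaemia, a failure of red cell production, had a median of 0.09. Of these, 20 lay above 0 and 18 had an interval above 0, much as in the family as a whole (75 and 69 of 77). Among all genes tested, 49.7% lay above 0 and 21.8% had an interval above 0. In the list 2 genes (10%) rose 1.1-fold or more, against 26.0% of the family and 24.0% of all genes tested. RPS28, RPS29 and RPL27 changed most in that list, the last from 30837 to 30902 counts (0.12, interval 0.10 to 0.14).

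Ribosomal protein genes have many processed pseudogenes, and reads of near-identical copies can be divided between them by the counting. The table lists 1431 genes named as pseudogenes of the 77, of which 502 had counts and 142 passed the minimum. Together they took 0.118% of the counts without and 0.128% with PPMX-T003 (log2 ratio of their sums 0.12, interval 0.10 to 0.14). For the median gene, pseudogenes held 0.195% of the reads of gene and pseudogenes together in the unexposed library. Above 5% were 8 genes. RPS28 stood apart, with 48.2% of those reads without and 42.3% with PPMX-T003 on pseudogenes, nearly all on RPS28P7 (6535 and 6161 counts). With them added, RPS28 had 13636 and 14690 counts and its log2 fold change went from 0.38 to 0.22 (interval 0.19 to 0.26). RPL9 had 14.1% and 13.7% on pseudogenes and its value went to -0.0051 (interval -0.02 to 0.01), and RPSA had 13.9% and 13.4%, with 0.06 (interval 0.04 to 0.07). RPS2 went from 0.23 to 0.22 (interval 0.21 to 0.23) with 7.83% and 7.43% of its reads there. How RPS28 reads were assigned was not tested.

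**Figure D4:**
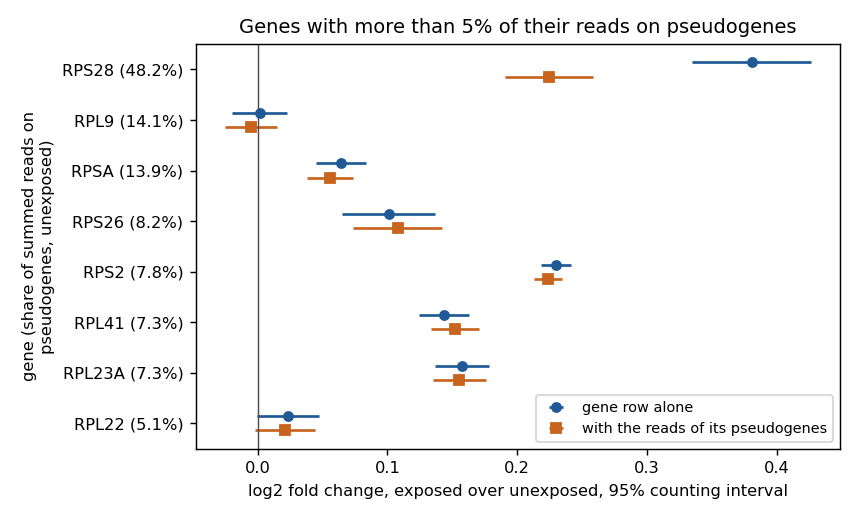
Log2 fold change of exposed over unexposed (horizontal axis) for the 8 genes with more than 5% of their reads on pseudogenes in the unexposed library, with 95% counting intervals. Circles are the gene alone and squares the gene with the reads of its pseudogenes. RPS28 moves from 0.38 to 0.22, and the bars of the other 7 overlap.

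Other genes also share sequence with the family. Readthrough genes, which join a gene to its neighbour in 1 transcript, are listed for RPL17, RPL36A and RPS10. RPL17-C18orf32 fell from 1606 to 837 counts, a change of -0.82 (interval -0.95 to -0.70), while RPL17 went from 47676 to 47509 (0.11, interval 0.09 to 0.13) and their sum changed by 0.09. RPL36A-HNRNPH2 (150 and 160 counts) and RPS10-NUDT3 (947 and 893) had intervals that hold 0. In GENCODE, 35 of the 77 genes share exon sequence with another gene, in most cases a small nucleolar RNA. Their median was 0.09, against 0.11 for the 42 that share none.

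The change moved with base composition. Across the 77 genes the log2 fold change had a Spearman's rho of 0.37 with the GC content of the transcripts and -0.28 with their length, a description across genes of 1 pair of libraries. Over the 12092 tested genes with a GENCODE length, the values were 0.38 and -0.21. By GC content, the lowest 26 genes (42.7% to 48.2% GC) had a median of 0.08, the middle 26 (48.7% to 52.7%) of 0.10 and the highest 25 (53.5% to 62.8%) of 0.13. In the same ranges, other genes with at least 10000 counts had medians of -0.05, 0.0017 and 0.07. The family thus lay above those genes in each range, by less at high GC. When a robust fit over all tested genes of the log2 fold change on length and GC content was taken out, the median of the 77 went from 0.10 to 0.06, with 65 above 0, while 49.7% of the other well-counted genes were above 0. RPS28 then had 0.34, RPS29 0.28 and RPL6 -0.07. A fit that used each gene's longest transcript, an alternative chosen after seeing the data, left a median of 0.05 and 52 genes above 0, with RPS29 (0.41) then above RPS28 (0.30) and RPL6 at -0.09. After this second fit 50.6% of the other well-counted genes lay above 0. With the counting intervals moved by the fitted values, 59 genes had an interval above 0 and 4 below after the first fit. After the second these were 43 and 14. The shares of all genes by interval were not computed after the fits. The part of GC content in the change of these genes was not tested further.

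**Figure D5:**
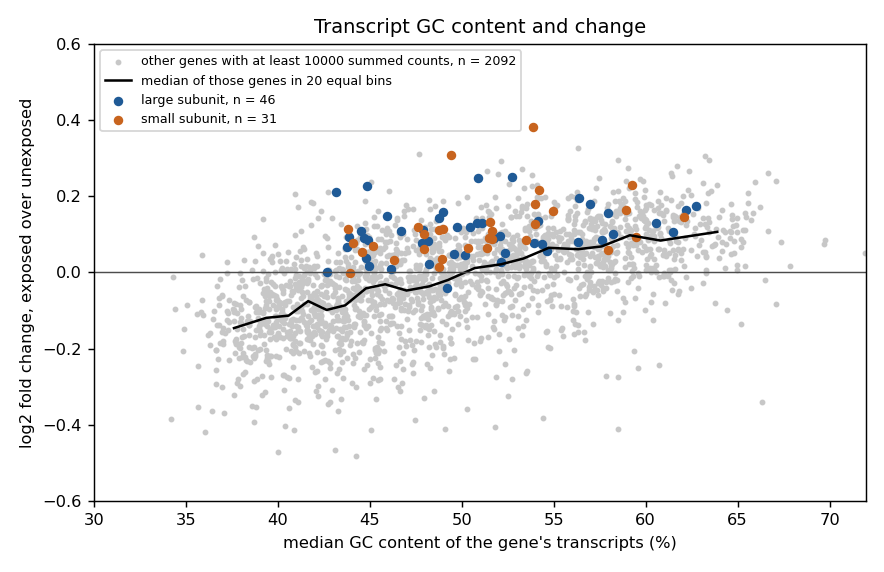
Log2 fold change of exposed over unexposed (vertical axis) against the median GC content of each gene's transcripts (%). Grey points are 2092 other genes with at least 10000 counts and a known GC content, the black line their median in bins of equal size, which climbs from left to right. Blue and orange points are the large and small subunit genes, most of them above the line.

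Genes were also divided by whether a TOP tract begins at a listed start base, which depends on where the start is annotated. The 15 genes without a matched promoter are left out. Of the 16 counted as without a tract, 7 had such a tract within 5 bases of a start. The 46 genes with a tract at a listed start had a median log2 fold change of 0.09 and the 16 without of 0.12. Among other protein-coding genes with a matched promoter, the 663 with a tract had a median of -0.0050 and the 8384 without of -0.0093. With at least 10000 counts these were 0.02 for 158 genes and -0.02 for 1640. In these other genes the median was thus higher with a tract, the reverse of the order in the family. Whether the tract bears on the change was not tested.

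Of 18 non-ribosomal genes long known for TOP mRNAs, 11 had an interval above 0 and 3 below (21.8% and 23.9% of all genes tested), with a median of 0.07. EIF3F, of initiation factor eIF3, had 7453 counts without and 7880 with PPMX-T003 (0.20, interval 0.15 to 0.24). RACK1, a scaffold on the small subunit, went from 51674 to 51873 (0.12, interval 0.11 to 0.14). EIF4B, EIF3E and NAP1L1 had intervals below 0, with log2 fold changes of -0.11, -0.10 and -0.11. FAU, a fusion of a ubiquitin-like protein and the small subunit protein eS30, went from 15223 to 15357 (0.13, interval 0.10 to 0.16). RPS27A, a ubiquitin fusion that the rule includes, went from 22354 to 21391 (0.05, interval 0.03 to 0.08).

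Of 8 paralogs that the rule leaves out, RPL3L and RPL10L had 0 counts in both libraries, and the other 6 had a median log2 fold change of 0.04. RPL26L1 went from 1754 to 1942 counts (0.26, interval 0.17 to 0.36) and RPL7L1, which had the most reads of them, from 17866 to 15984 (-0.04, interval -0.07 to -0.01). RPL22L1 (1278 and 1146 counts), RPL36AL (4756 and 4482), RPL39L (520 and 496) and RPS27L (2137 and 2061) had intervals that hold 0.

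Of 12 genes of mTORC1 signalling and LARP1-related proteins, 3 had an interval above 0 and 4 below, with a median of -0.01, counts near the 21.8% and 23.9% of all genes tested. MLST8, a subunit of mTORC1, had 2793 and 3147 counts (log2 fold change 0.29, interval 0.22 to 0.36). EIF4EBP1, a repressor of translation that mTORC1 phosphorylates, went from 497 to 362 (-0.34, interval -0.54 to -0.14), and RPTOR, which brings substrates to mTORC1, from 2679 to 2771 (0.17, interval 0.09 to 0.24). LARP1 had 36335 and 33468 counts (-0.0013, interval -0.02 to 0.02). Of 16 genes for dedicated chaperones and late assembly factors of ribosomes, 6 had an interval above 0 and 4 below, with a median of 0.01. EFL1, the enzyme that removes eIF6 from new large subunits, went from 1675 to 1238 (-0.32, interval -0.43 to -0.21), NOB1, the nuclease that finishes the 18S RNA, from 4623 to 4944 (0.21, interval 0.16 to 0.27) and NMD3, the export adaptor of the large subunit, from 4418 to 3635 (-0.16, interval -0.23 to -0.10).

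The 78 mitochondrial ribosomal protein genes, the closest family by function, had a median of 0.09, with 42 intervals above 0 and 14 below, where all genes tested had 21.8% and 23.9%. Of the 78, 20 (25.6%) rose 1.1-fold or more, a share close to the 26.0% of the cytosolic genes and the 24.0% of all genes tested. MRPL24 (3659 and 4103 counts, log2 fold change 0.28), MRPL41 (1496 and 1631, 0.24) and MRPL23 (2297 and 2469, 0.22) changed most by the bound of their intervals. Of these 78 genes 54 lay above 0, against 75 of the 77 cytosolic ones. Their values ran from -0.20 to 0.28, with an SD of 0.12, against 0.07 in the cytosolic family.

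On the deposited TPM scale the cytosolic genes lay closer to 0. With a pseudocount of 1 their median log2 fold change was 0.05, and 59 of the 77 lay above 0 and 18 below. Of the 6112 genes whose TPM reached 20 in both libraries, 34.8% lay above 0, with a median of -0.04. In these genes the TPM log2 fold change minus the count log2 fold change had a median of -0.05. By TPM, 8 of the 77 rose 1.1-fold or more. The share of all genes past that size was not computed on this scale, so the count has no background to be set against.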

How the data were processed

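Polyadenylated RNA of 2 NK92 dishes was sequenced, 1 library each, grouped by the treatment in the labels. According to the methods and the submitters' processing notes, the authors trimmed reads with Trimmomatic 0.38, mapped them with HISAT2 2.2.0 to hg38, counted them with StringTie 2.1.3b and named edgeR 3.17 for the comparison. The deposited counts are unscaled integers. Commas between digits were removed, for which reason the unit was recorded as general and no count model was fitted. The authors also gave FPKM and TPM, without decimals, which count here as a score. From the counts, log2 fold changes of CPM were computed with TMM scaling (trimming 30% of the log ratios and 5% of the levels) and a prior count of 2. The software was Python 3.11.15, scipy 1.17.1, statsmodels 0.14.6, numpy 2.4.6, pandas 2.3.3 and matplotlib 3.10.9. Each interval is a 95% Clopper-Pearson interval for the fraction of a gene's reads that came from the exposed library, as a log2 ratio. They do not cover how StringTie divides shared reads. Genes with at least 20 summed counts were tested for description only, with no p-value, since each condition has 1 library. The calculation was tested on simulated data. Transcript lengths and GC content came from GENCODE release 29, and gene positions and promoters from RefSeq GRCh38.p14. Members and lists were chosen with earlier results of these data known. Named are the 5 highest and 5 lowest genes by the interval bound nearest 0 (with all ties at 0), the 5 highest and 5 lowest by TPM, the genes of the role lists, the paralogs, FAU and RPS27A, and the 3 changed most of each further list, a few of which are not shown. CD3E, CD28, LARP1, RPL37, RPS21 and the genes named for their pseudogenes, start sites or intervals below 0 were chosen after their values were seen.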

Additional observations from a re-analysis of the deposited data

How the results depend on the processing

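Of 105 recomputed values, 77 moved by less than counting error (for medians, 0.02 on the log2 scale, the median half-width of the intervals of single genes) or stayed within 1.5 times a count, and 0 changed sign beyond it. The difference between the subunits stayed between -0.01 and 0.0063, and without the fits between 66 and 74 genes had an interval above 0. After the fit on length and GC content was removed, the median log2 fold change was 0.059 (all), 0.057 (large subunit) and 0.060 (small subunit). The fit on the longest transcripts, chosen after seeing the data like the omission of RPS28 and RPS29, gave 0.054, 0.045 and 0.054. After these fits 9 and 12 genes were past 1.1-fold and 59 and 43 had an interval above 0, counts chosen after seeing the data. Shares of all genes to set beside these counts were not computed after the fits, nor for 1.1-fold on the TPM scale. Deposited TPM gave 0.046, 0.040 and 0.054, a log2 ratio of sums of 0.052, shares of 14.9% and 15.4%, and 8 genes past 1.1-fold. The ratio of sums was 0.094 with median-of-ratios and 0.12 with upper-quartile scaling. With a lower threshold 55 genes were past it and with a higher one, 1.2-fold, 2 (RPS28 and RPS29), against 20 at 1.1-fold. The shares of unexposed and exposed counts were 5.99% and 6.43% with pseudogene reads, 6.01% and 6.45% with a wider choice of genes, and 5.99% and 6.42% of protein-coding counts. The share of all genes that rose 1.1-fold was 29.5% at a minimum of 1 count and 18.7% at 200, against 24.0%, the minimum deciding which genes enter. The other causes were not tested. No paired analysis was possible because there are only 2 libraries, 1 for each dish, which also leaves no replicate to omit. The TPM scale gives no counting interval, so the number of genes beyond counting error was not computed on it. Differences between dishes were not measured.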
